A study of Mus musculus with 6 samples.

Results

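The genes described here are the 5 thrombospondins of the mouse, *Thbs1*, *Thbs2*, *Thbs3*, *Thbs4* and *Comp*, in ventricles with and without overexpression of the nuclear receptor COUP-TFII. They were taken by symbol, as every probe set that names exactly 1 of these genes, which gave 8 of 34945 usable probe sets and 5 of 18193 genes. CTRL mice carried *Myh6-MCM*, a transgene in which a cardiac promoter drives MerCreMer, a Cre recombinase that tamoxifen activates in cardiomyocytes. OE mice carried *Myh6-MCM* and in addition *CAG-S-COUP-TFII*, an allele from which Cre releases expression of COUP-TFII. All 6 animals had a mixed 129SvEv/C57Bl6/J strain background, received 40 mg of tamoxifen per kg per day on 3 days from 2 months of age, and gave their ventricles 16 days after the first dose, so every CTRL mouse had Cre and tamoxifen as well. The labels give an age of 2.5 months, whereas the array methods speak of animals 2 months old. Each group had 3 mice with 1 array each, and RNA came from whole ventricles, which hold cardiomyocytes together with fibroblasts, vessels and blood cells.

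Thrombospondins are secreted, calcium-binding glycoproteins that assemble from several chains and sit between cells and the extracellular matrix, where they bind collagens, growth factors, proteases and surface receptors. Thrombospondin-1 and -2 form trimers and carry the properdin-like repeats through which they bind CD36 and restrain vessel growth, and thrombospondin-1 is also a known activator of latent TGF-β. Thrombospondin-3, thrombospondin-4 and COMP, the cartilage oligomeric matrix protein, form pentamers and lack those repeats. In the heart, thrombospondin-4 is known for its rise under load and for its role in the endoplasmic reticulum beside the sensor ATF6, while COMP is best known from cartilage and tendon.

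Promoter sequences are shown because an overexpressed transcription factor separates the groups and the members fell into those that rose and those that were not called. RefSeq windows of 250 bases ending directly before the gene's start were at hand on GRCm38.p6 for *Thbs3* and *Thbs4*, which rose in OE, and for *Thbs2*, which was not called; *Thbs1* and *Comp* had no entry. Capitals mark matches, on either strand, of 4 motifs, none of which overlap here. AGGTCA is the half-site that many nuclear receptors bind. The TATA box was searched as TATAAA. The box of the factor NF-Y was searched as CCAAT. The GC box was searched as GGGCGG.
Thbs3 (chr3:89214930-89215179, plus strand): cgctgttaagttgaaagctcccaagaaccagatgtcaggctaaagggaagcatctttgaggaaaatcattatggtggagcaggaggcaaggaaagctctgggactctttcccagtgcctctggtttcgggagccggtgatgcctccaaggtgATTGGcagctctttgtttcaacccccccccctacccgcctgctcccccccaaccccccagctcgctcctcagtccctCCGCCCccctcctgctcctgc
Thbs4 (chr13:92794819-92795068, minus strand): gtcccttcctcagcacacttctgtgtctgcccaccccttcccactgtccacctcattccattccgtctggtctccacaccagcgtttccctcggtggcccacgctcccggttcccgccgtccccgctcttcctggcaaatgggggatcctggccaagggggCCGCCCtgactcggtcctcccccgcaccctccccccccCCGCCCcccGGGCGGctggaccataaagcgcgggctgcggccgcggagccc
Thbs2 (chr17:14694263-14694512, minus strand): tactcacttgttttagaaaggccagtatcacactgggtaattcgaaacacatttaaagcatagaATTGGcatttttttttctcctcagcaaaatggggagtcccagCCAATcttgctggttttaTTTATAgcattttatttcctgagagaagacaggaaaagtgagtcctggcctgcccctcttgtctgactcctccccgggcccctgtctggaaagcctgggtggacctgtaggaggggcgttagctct
No AGGTCA was found in any of these windows, and 14% of the 32851 promoter windows of this length held it. *Thbs4* had 3 GGGCGG matches, and *Thbs3* had 1 CCAAT and 1 GGGCGG. *Thbs2* held 1 TATAAA and 2 CCAAT and no GGGCGG. Over all windows, 12.4% held TATAAA, 33.8% CCAAT and 32.7% GGGCGG. The GC content was 70.8% for *Thbs4*, 58.8% for *Thbs3* and 46.8% for *Thbs2*, beside a median of 52.4% over all windows. A match is a string of letters and was not tested as a binding site.

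The deposited values are log2 values that the authors set relative to that probe set's median across the 6 arrays, so they show differences between arrays and hold no level. They cannot show which thrombospondin is the most abundant, nor whether a marker of a tissue is absent. The probe set of *Nr2f2*, the gene of COUP-TFII, with the largest difference was at −1.99, −1.60 and −1.65 in CTRL and at 1.72, 1.60 and 1.91 in OE (log2 change 3.49, adjusted p = 2.57e-05 by limma over probe sets), and the other five were not called (log2 change −0.34 to −0.13). Arrays of a group were 0.194 to 0.233 apart as a root mean square over genes, and arrays of different groups 0.375 to 0.427. Changes are OE minus CTRL on the log2 scale, and a gene was called where its limma p, adjusted by Benjamini and Hochberg over 18193 genes, was under 0.05. By this rule 14.9% of all genes were called higher and 11.8% lower, 26.7% together, and the median change of all genes was −0.03. Setting every array relative to the mean of its ribosomal protein genes (ribosomal centring), of which 44 of 79 listed were measured, moved that median to −0.25 and the calls to 1312 higher and 9194 lower, so counts with this centring are given beside those of each gene list below. Calls in the lists stand beside 14.9% of all genes higher and 11.8% lower as deposited. With ribosomal centring they stand beside 1312 higher and 9194 lower of 18193 genes.

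Of the 5 thrombospondin genes, *Comp*, *Thbs4* and *Thbs3* rose in OE ventricles and *Thbs1* and *Thbs2* were not called. The 3 that rose encode the pentameric proteins and the 2 that were not called encode the trimeric ones, a grouping known from textbooks that was set beside the values after they were seen. The 3 called higher stand beside the 14.9% of all genes called higher, and *Comp*, *Thbs4* and *Thbs3* also passed 2-fold, as did 1.64% of all genes. By one-way analysis of variance 7.9% of all genes were called higher, and the same 3 members were. Of the 8 probe sets, 3 were called higher, 0 lower and 5 not called by limma, beside 13.9% and 10.4% of all probe sets called higher and lower. At an unadjusted p under 0.05, 0 of the genes and 1 of the probe sets, a *Thbs2* one, were lower, beside 19.9% of all genes and 18.3% of all probe sets, and 20.4% of all genes were higher by that measure. All 3 OE arrays lay above all 3 CTRL arrays for 3 of the 5 genes and for 22% of all genes, and an exact permutation test of 3 against 3 arrays cannot go below p = 0.1.

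**Figure D1:**
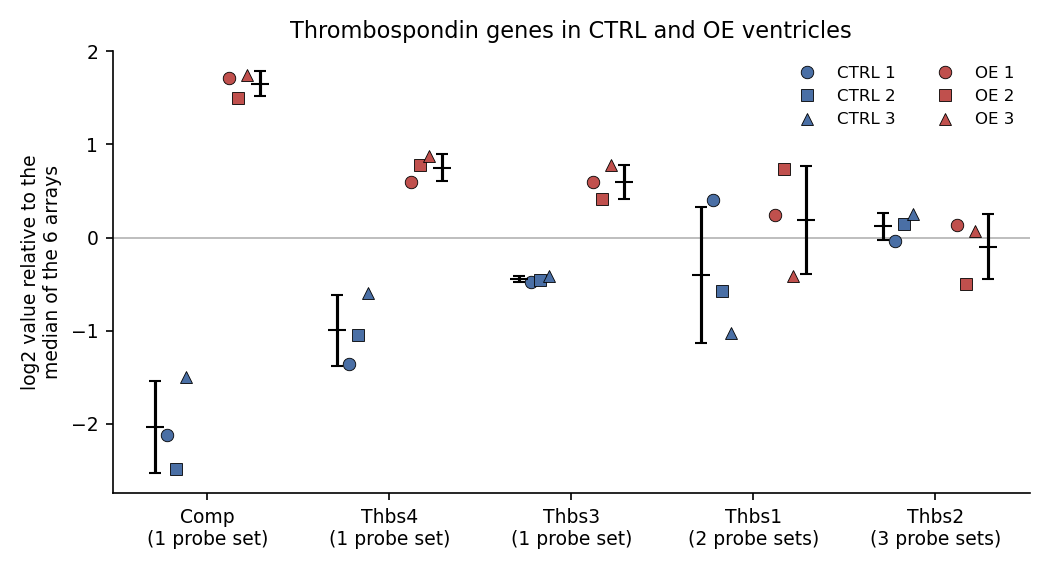
Log2 value of each thrombospondin gene, relative to the median of the 6 arrays, in the 3 CTRL (blue) and 3 OE (red) ventricles, with bars for the group mean and SD and symbols for the replicate number. All OE arrays lie above all CTRL arrays for *Comp*, *Thbs4* and *Thbs3*, while the groups overlap for *Thbs1* and *Thbs2*.

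*Comp* showed the widest separation of the family. Its probe set was at −2.11, −2.48 and −1.50 in CTRL and at 1.71, 1.50 and 1.75 in OE. The OE arrays lay close together and far above every CTRL array, and CTRL 3 was the highest of the controls. The group means were −2.03 ± 0.50 (SD, n = 3) and 1.65 ± 0.14 (SD, n = 3), which is a 12.8-fold rise (log2 change 3.68, SE 0.22, 95% interval 3.17 to 4.20, adjusted p = 0.000115 by limma). Only 3 of the 18193 genes had a larger rise, which put *Comp* at rank 4. On leaving out each array in turn the log2 change stayed between 3.46 and 3.95.

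*Thbs4*, whose product is made by stressed cardiomyocytes as well as by cells of the interstitium, was at −1.35, −1.04 and −0.59 in CTRL and at 0.59, 0.78 and 0.88 in OE. The OE arrays again lay above all CTRL arrays, and CTRL 3 was once more the control nearest to them. The means of −0.996 ± 0.38 and 0.75 ± 0.14 (SD, n = 3 each) correspond to a 3.35-fold rise (log2 change 1.75, SE 0.18, 95% interval 1.33 to 2.16, adjusted p = 0.000773 by limma), rank 64 of all genes by rise. The change was 1.57 to 1.95 when an array was left out.

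*Thbs3*, the least studied of the pentameric members, was at −0.48, −0.46 and −0.41 in CTRL and at 0.59, 0.41 and 0.78 in OE. The controls were nearly level, and the spread lay among the OE arrays, with OE 3 the highest. The means were −0.45 ± 0.03 and 0.59 ± 0.18 (SD, n = 3 each), a 2.06-fold rise (log2 change 1.04, SE 0.10, 95% interval 0.82 to 1.27, adjusted p = 0.000509 by limma) and rank 272 by rise. The change stayed between 0.95 and 1.13 on leaving out an array. With ribosomal centring the change was 3.47 for *Comp*, 1.53 for *Thbs4* and 0.83 for *Thbs3*, and all of them stayed called.

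*Thbs1* is known as an early response gene and as an abundant protein of platelet granules. Averaged over 2 probe sets, it was at 0.41, −0.58 and −1.03 in CTRL and at 0.24, 0.74 and −0.41 in OE. The groups overlapped, since CTRL 1 lay above OE 1 and OE 3, and the spread within each group was wide. The means of −0.40 ± 0.73 and 0.19 ± 0.58 (SD, n = 3 each) differed by a log2 change of 0.59 (SE 0.39, 95% interval −0.32 to 1.49), which was not called (adjusted p = 0.294 by limma). This interval holds both no change and a rise larger than that of *Thbs3*. On leaving out each array the log2 change ran from 0.28 without CTRL 3 (adjusted p = 0.626) and 0.31 without OE 2 (adjusted p = 0.611) to 0.89 without OE 3 (adjusted p = 0.157) and 0.99 without CTRL 1 (adjusted p = 0.0752 by limma), and it was called in none of these fits.

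Both *Thbs1* probe sets had the same order of arrays within CTRL. Probe set 1450377_at had a log2 change of 0.33 (adjusted p = 0.447 by limma over probe sets), which ran from 0.05 without CTRL 3 to 0.60 without OE 3 and was never called. At 1460302_at the values were 0.67, −1.01 and −1.21 in CTRL and 0.34, 0.99 and −0.34 in OE, a log2 change of 0.85 (adjusted p = 0.252). CTRL 1 was the only control within the OE range there, and without it the change at this probe set was 1.44 and called (adjusted p = 0.0282 by limma over probe sets). It was 0.50 without CTRL 3 (adjusted p = 0.521), 0.52 without OE 2 (adjusted p = 0.538), 0.60 without CTRL 2 (adjusted p = 0.494), 0.84 without OE 1 and 1.18 without OE 3 (adjusted p = 0.173), none of which was called.

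*Thbs2*, a thrombospondin of fibroblasts that is needed for orderly collagen fibrils, was at −0.03, 0.15 and 0.25 in CTRL and at 0.14, −0.50 and 0.07 in OE over 3 probe sets. OE 2 stood below the other arrays, which lay within a narrow range. The means of 0.12 ± 0.15 and −0.10 ± 0.35 (SD, n = 3 each) gave a log2 change of −0.22 (SE 0.17, 95% interval −0.61 to 0.17), which was not called (adjusted p = 0.355 by limma). On leaving out each array the change ran from −0.34 without OE 1 to −0.02 without OE 2 and was never called, and with ribosomal centring it was −0.44 and called lower (adjusted p = 0.0406 by limma). With that centring 9194 of the 18193 genes were called lower. The interval leaves out a rise of the size seen in *Comp*, *Thbs4* or *Thbs3*.

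The 3 *Thbs2* probe sets did not have the same sign as deposited, though all were negative with ribosomal centring. The log2 change was 0.15 at 1422571_at (adjusted p = 0.5), −0.33 at 1447862_x_at (adjusted p = 0.255) and −0.48 at 1450663_at (adjusted p = 0.105 by limma over probe sets). OE 2 was the lowest array at each of them. As deposited none was called, and with ribosomal centring the changes were −0.07, −0.55 and −0.70, the last 2 of them called lower. That centring called 9194 of all 18193 genes lower.

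**Figure D2:**
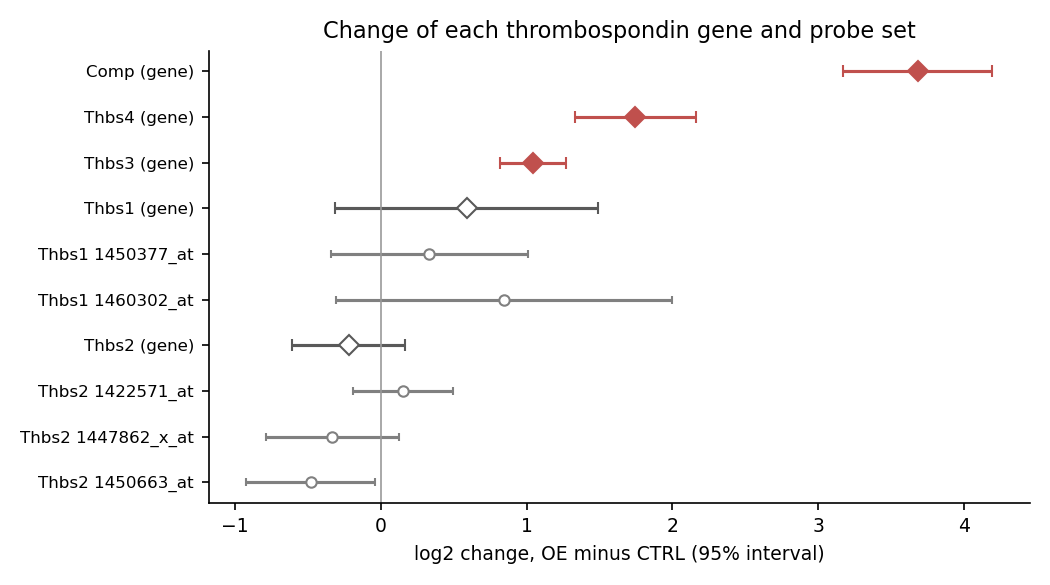
Log2 change (OE minus CTRL, x axis) of each thrombospondin gene (diamonds) and, for genes with more than 1 probe set, of each probe set (circles), with 95% intervals from limma; filled red diamonds were called. The intervals of *Comp*, *Thbs4* and *Thbs3* lie wholly above 0, and those of *Thbs1* and *Thbs2* reach across it, as do those of their probe sets except 1450663_at of *Thbs2*, which lies wholly below 0.

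By size of change the members ranked *Comp*, *Thbs4*, *Thbs3*, *Thbs1* and *Thbs2*. Neighbours were compared by the difference of their values within each array, in 4 exact permutation tests, two-sided. The change of *Comp* exceeded that of *Thbs4* by 1.94, with the within-array differences of OE and CTRL not overlapping (exact p = 0.1, the smallest possible, adjusted 0.2). *Thbs4* exceeded *Thbs3* by 0.70, again without overlap (exact p = 0.1, adjusted 0.2), although the within-array difference ran from −0.88 to −0.18 in CTRL and from 0.00 to 0.37 in OE. *Thbs3* and *Thbs1* were 0.46 apart (exact p = 0.5) and *Thbs1* and *Thbs2* 0.81 apart (exact p = 0.4, adjusted 0.5), both within the spread of the arrays.

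The genes whose 6 array values were most like those of the risen members were picked by the smallest root mean square difference, each gene centred on its own mean. For *Comp* these were *Cd24a* (0.279 on the log2 scale), a surface glycoprotein, *Cilp* (0.378), a protein of cartilage and of the cardiac interstitium, and *Timp1* (0.386), an inhibitor of matrix metalloproteinases. For *Thbs4* they were *Mfap5* (0.107), a protein of elastic microfibrils, *Col5a2* (0.147), a fibrillar collagen chain, and *Lox* (0.148), the enzyme that cross-links collagen and elastin. For *Thbs3*, which lies in a crowded range of changes, they were *Mad2l1* (0.0376), a gene of the spindle checkpoint, *Mvp* (0.0425), the major vault protein, and *D17H6S56E-5* (0.0489). All of these genes were called higher, which follows closely from picking them for likeness to members that had risen. They are given as a description over 6 arrays that share 1 contrast.

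Receptors of thrombospondins showed no common direction. Of 16 measured, 2 were called higher and 2 lower, beside 14.9% and 11.8% of all genes. The median log2 change was −0.03, equal to that of all genes. *Itgb5*, the integrin β5 chain, rose by 0.93 (adjusted p = 0.000777), while *Vldlr*, a lipoprotein receptor, fell by 0.92 (adjusted p = 0.00105). *Cd36*, the fatty acid transporter that binds the repeats of *Thbs1* and *Thbs2* products, fell by 0.43 (adjusted p = 0.00343). *Itgb1*, the common integrin β1 chain, rose by 0.25 (adjusted p = 0.0408), but this call was lost on leaving out any array except CTRL 1 (adjusted p up to 0.112) and with ribosomal centring (log2 change 0.03). *Itga9* (0.49, adjusted p = 0.0688) and *Itga6* (−0.37, adjusted p = 0.0754) were not called, nor was *Cd47* (−0.13, adjusted p = 0.328), which was named for its role as the receptor of the C-terminal end after its values were seen. With ribosomal centring 1 receptor was called higher and 9 lower.

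Matrix partners of thrombospondins and the proteases that cut them, 25 genes, had 14 called higher and 1 lower and a median log2 change of 0.34. Of all genes 14.9% were called higher and 11.8% lower. *Col3a1* (1.43) and *Col1a2* (1.29), chains of the fibrillar collagens that COMP and thrombospondin-4 bind, rose, as did *Eln*, the gene of elastin (1.11). *Adamts1*, a secreted metalloproteinase, rose by 1.31 (adjusted p = 0.000996). *Adamts7*, a metalloproteinase known to cleave COMP, fell by 0.43 (adjusted p = 0.0382), a call that was lost without any 1 array except CTRL 1 (adjusted p up to 0.112). The other proteases of this family did not follow *Adamts7*, and the next genes were named after their values were seen. *Adamts12* was called higher (0.30, adjusted p = 0.0346 by limma) and *Adamts4* was not called (0.21, adjusted p = 0.206). *Col9a1*, a chain of the cartilage collagen that COMP binds, was at −0.22 (adjusted p = 0.0856). With ribosomal centring 11 of the 25 were called higher and 6 lower.

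Other matricellular genes, which like thrombospondins encode secreted modulators of the matrix, had 8 of 14 called higher and 0 lower, with a median change of 0.73. The largest rises were those of *Cilp* (3.36), *Cthrc1* (3.24), a collagen modulator, *Postn* (2.66), the gene of periostin, and *Ccn5* (2.58), which is also known as *Wisp2*. *Fbln5*, a fibulin of elastic fibres, was at 0.39 (adjusted p = 0.0575) and *Sparcl1* at −0.27 (adjusted p = 0.119), and neither was called. *Comp* at 3.68 lay above all 14 of these, and *Thbs4* and *Thbs3* lay below the 4 that were named. At an unadjusted p under 0.05 by limma, which 20.4% of all genes passed as higher and 19.9% as lower, 9 were higher and 1 lower, and with ribosomal centring 7 were called higher and 2 lower.

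Genes of TGF-β activation and response, the route through which *Thbs1* is known to act, had 8 of 19 measured called higher and 4 lower (median 0.18). Of all genes 14.9% were called higher and 11.8% lower. *Ltbp2*, a latent TGF-β binding protein, rose by 2.76 (adjusted p = 9.87e-05). The ligands did not move together. *Tgfb2* (1.25) and *Tgfb3* (1.13) rose, while *Tgfb1*, named for its role after its values were seen, fell by 0.25 (adjusted p = 0.0414). The call on *Tgfb1* was lost without CTRL 2, OE 1 or OE 2, when only *Tgfbr3* and *Ltbp4* of the list were called lower. *Ccn2*, the connective tissue growth factor, rose by 1.45 (adjusted p = 0.0486), a call lost without CTRL 1 or any 1 OE array (adjusted p up to 0.112). *Tgfbr3*, the co-receptor betaglycan, fell by 0.70 and *Ltbp4* by 0.41. With ribosomal centring 5 were called higher and 7 lower, and the median turned to −0.04.

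The ATF6 branch and the chaperones of the endoplasmic reticulum, where the *Thbs4* product binds ATF6, had 2 of 20 called higher and 3 lower, with a median change of 0.03. These counts lie near the 14.9% of all genes called higher and 11.8% called lower. *Herpud1*, a component of protein degradation at the reticulum, fell by 0.75 (adjusted p = 0.0117). The chaperone gene *Hspa5*, named for its role after its values were seen, fell by 0.28 (adjusted p = 0.0461, just under the threshold). Its call was lost without CTRL 2, CTRL 3 or any 1 OE array, when only *Herpud1* of the list was called lower. The calls on *Creld2* (0.37, adjusted p = 0.0492), *Mbtps2*, a protease that releases ATF6 (0.31, adjusted p = 0.0466), and *Hsp90b1*, a chaperone (−0.34, adjusted p = 0.045), were each lost on leaving out any of at least 4 of the 6 arrays (adjusted p up to 0.14). *Manf* (0.35, adjusted p = 0.135), *Atf6b* (0.31, adjusted p = 0.0781) and *Atf6* itself (0.26, adjusted p = 0.096, named for its role after its values were seen) were not called. *Thbs4* at 1.75 therefore stood beside a list whose called changes ran from −0.75 to 0.37, and with ribosomal centring 0 of the 20 were called higher and 7 lower.

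Genes of nitric oxide signalling and of vessel growth, both restrained by the trimeric thrombospondins, had 1 of 13 called higher and 6 lower, with a median of −0.44. Of all genes 14.9% were called higher and 11.8% lower. *Angpt1*, a ligand that steadies vessels, fell by 1.00 (adjusted p = 0.0034) and *Vegfa*, the vascular endothelial growth factor, by 0.76 (adjusted p = 0.00144). *Flt1*, a receptor of the latter, fell by 0.62 (adjusted p = 0.0145, and 0.05 without CTRL 2, just short of the threshold). *Kdr* (−0.63, adjusted p = 0.1) and *Nrp1* (−0.44, adjusted p = 0.0619) were not called. *Prkg1*, the kinase that cyclic GMP activates, rose by 0.59 (adjusted p = 0.042), a call lost without CTRL 2 or any 1 OE array (adjusted p up to 0.117). With ribosomal centring 0 were called higher and 11 lower.

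**Figure D3:**
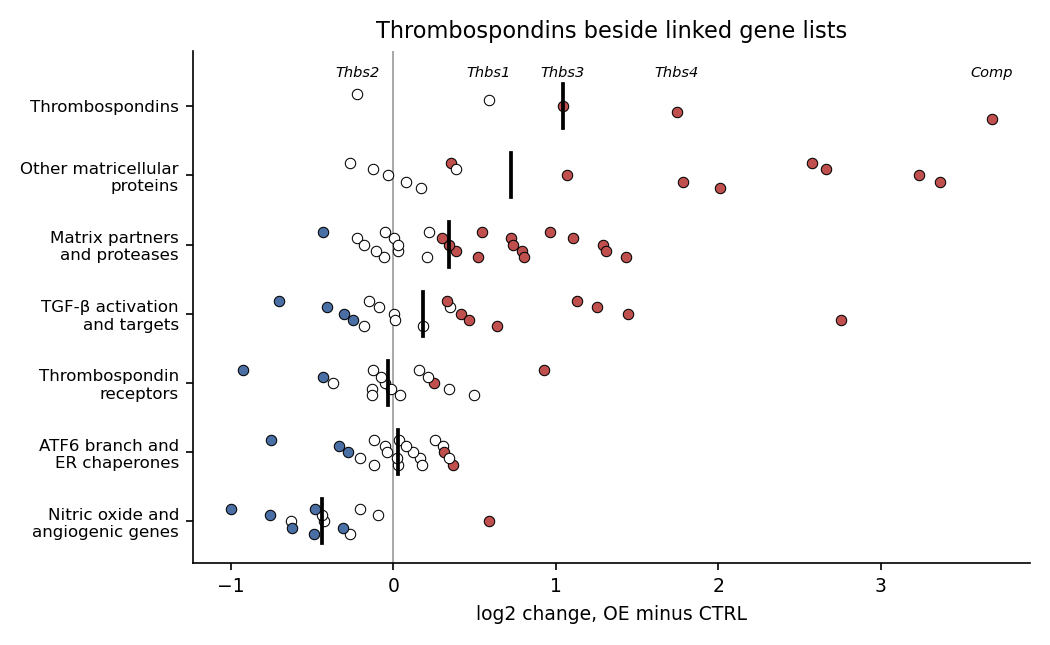
Log2 change (OE minus CTRL, x axis) of the 5 thrombospondins and of each measured gene in 6 linked lists (rows); red points were called higher, blue lower and white not called, and vertical bars are list medians. *Comp* lies to the right of every point of the linked lists, and the list medians run from −0.44 to 0.73.

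In whole ventricles, fewer cells of a type and less RNA per cell cannot be told apart, and markers of several cell types moved with the groups. Of 10 markers of activated fibroblasts, 9 were called higher and 0 lower, with a median change of 2.47, and *Fap* was not called (0.12, adjusted p = 0.299). Their mean value was −1.34, −1.50 and −0.83 in CTRL and 0.96, 1.10 and 1.12 in OE. CTRL 3 was the highest and CTRL 2 the lowest control, as they were for *Comp*, while for *Thbs4* CTRL 1 was the lowest. *Cnn1*, a calponin also found in smooth muscle (4.94), *Timp1* (3.26), *Cthrc1* (3.24) and *Ltbp2* (2.76) led the list. *Postn* and *Cthrc1* are also in the matricellular list and *Ltbp2* in the TGF-β list. *Acta2*, *Tagln* and *Cnn1* are also among the markers of smooth muscle and pericytes. Resident fibroblast markers had 6 of 12 called higher and 2 lower (median 0.37), beside 14.9% and 11.8% of all genes. Their list means were −0.56 to −0.21 in CTRL and 0.15 to 0.40 in OE. *Mfap4* (2.54), *Pdgfrl* (2.20), *Col3a1* (1.43) and *Col1a2* (1.29) rose the most. The 2 called lower were *Gsn* (−0.35, adjusted p = 0.0175, lost without CTRL 1, OE 2 or OE 3) and *Dpt* (−0.31, adjusted p = 0.0163, lost without OE 2). The 4 not called were *Pdgfra* (0.15), *Tcf21* (0.24), *Dcn* (0.03) and *Fbln1* (0.03). The counts of both fibroblast lists were the same with ribosomal centring, and for activated fibroblasts also at an unadjusted p under 0.05 and by one-way analysis of variance. The part of fibroblasts in the changes of *Comp*, *Thbs4* and *Thbs3* was not tested.

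Markers of tendon and cartilage, the tissues in which *Comp* is best known, had 3 of 15 called higher and 3 lower, with a median change of −0.10. Of all genes 14.9% were called higher and 11.8% lower. *Fmod*, the collagen-binding fibromodulin, rose by 1.87 (adjusted p = 0.00116) and *Col11a1*, a minor fibrillar collagen, by 1.71 (adjusted p = 0.0332, up to 0.0932 when any 1 array except OE 3 was left out). *Tnmd*, the gene of tenomodulin, rose by 0.72 (adjusted p = 0.0164, lost without CTRL 2 or OE 3). *Cnmd*, the gene of chondromodulin, fell by 0.60 (adjusted p = 0.0375, lost without any 1 OE array), and *Col2a1*, the main collagen of cartilage, fell by 0.29 (adjusted p = 0.0177, lost without CTRL 1 or OE 1). *Prg4*, the gene of lubricin, was at 0.77 (adjusted p = 0.071). With ribosomal centring 3 were called higher and 9 lower, and *Comp* is not itself a member of this list.

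Beside *Thbs1*, 14 immediate early genes, which respond within minutes to stimulation and handling, had 4 called higher and 0 lower, with a median change of 0.56. Their mean value was −0.05, −0.47 and −0.55 in CTRL and 0.11, 0.56 and 0.17 in OE. CTRL 1 was the highest and CTRL 3 the lowest control and OE 2 the highest OE array, each as for *Thbs1*, but the lowest OE array was OE 1 here and OE 3 for *Thbs1*, and the part of this in the values of *Thbs1* was not tested. *Egr2* (2.24, adjusted p = 0.00789) and *Junb* (0.63, adjusted p = 0.00908) rose, as did *Ier3* (1.32, adjusted p = 0.0303) and *Fos* (0.82, adjusted p = 0.0156), of which the call on *Ier3* was lost without any 1 array except CTRL 3 and that on *Fos* without OE 1 (adjusted p up to 0.0881). *Atf3* (1.24, adjusted p = 0.236) and *Myc* (0.80, adjusted p = 0.0551) were not called. Without CTRL 1, 7 of the 14 were called higher, and without OE 1, 2. With ribosomal centring 4 were higher and 2 lower, by one-way analysis of variance 0 passed either way, and at an unadjusted p under 0.05 by limma 6 were higher and 0 lower, again beside 20.4% and 19.9% of all genes. Platelet markers had 0 of 9 called higher and 1 lower (median −0.10), with list means of −0.06 to 0.17 in CTRL and −0.11 to −0.04 in OE. At an unadjusted p under 0.05 by limma 1 of the 9 was higher and 2 lower, beside 20.4% and 19.9% of all genes, and with ribosomal centring 0 were called higher and 6 lower.

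**Figure D4:**
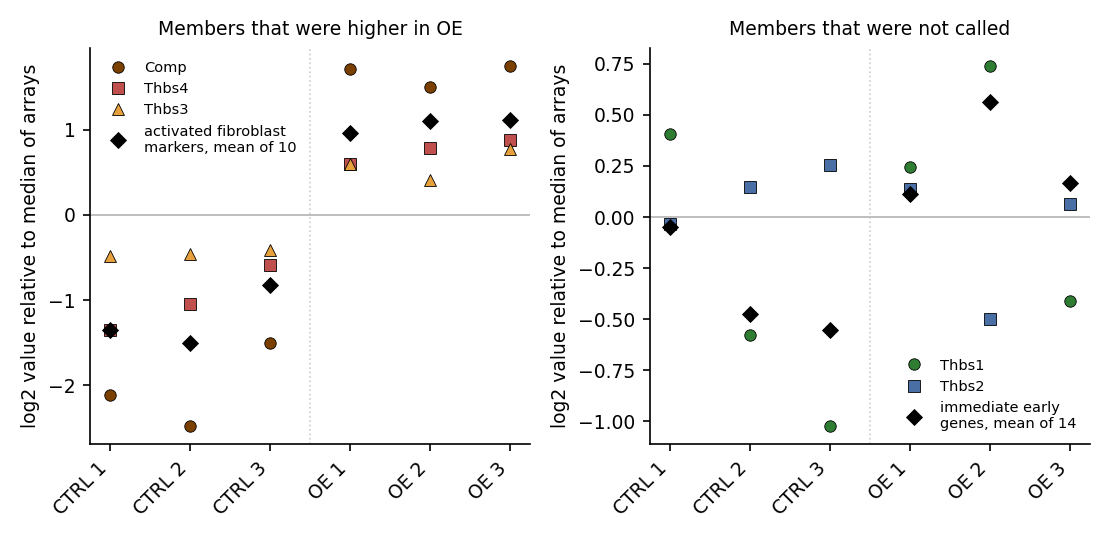
Log2 values relative to the median of the 6 arrays (y axis) in each array (x axis); the left panel shows *Comp*, *Thbs4*, *Thbs3* and the mean of 10 activated fibroblast markers, the right panel *Thbs1*, *Thbs2* and the mean of 14 immediate early genes. On the left every series is below 0 in all CTRL arrays and above 0 in all OE arrays, and on the right *Thbs1* and the immediate early genes are highest in CTRL 1 among the controls and in OE 2 among the OE arrays.

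Of the other cell types, cardiomyocyte markers had 1 of 15 called higher and 9 lower (median −0.47), beside 14.9% and 11.8% of all genes. *Myh6*, whose promoter drives the Cre (−1.30, adjusted p = 0.000143), and *Atp2a2*, the calcium pump of the sarcoplasmic reticulum (−0.95), fell the most. The 1 called higher was *Mybpc3* (0.28, adjusted p = 0.0304), a call lost without any 1 array except CTRL 2. *Actn2* was not called (0.12, adjusted p = 0.203). Endothelial markers had 0 of 12 called higher and 6 lower (median −0.35), and macrophage markers 6 of 12 higher and 0 lower (median 0.44). Markers of smooth muscle and pericytes split, with 5 of 12 called higher and 5 lower (median −0.27), from *Abcc9*, a potassium channel subunit of pericytes and muscle, which was called lower, to *Cnn1*, which was called higher. The ranges of their list means did not overlap between the groups, from 0.16 to 0.23 in CTRL and −0.25 to −0.18 in OE for cardiomyocytes, 0.10 to 0.35 and −0.19 to 0.00 for endothelium, −0.42 to −0.11 and 0.06 to 0.32 for macrophages, and −0.32 to −0.05 and 0.10 to 0.27 for smooth muscle and pericytes. For the last list the median over its genes separated the other way, from 0.00 to 0.22 in CTRL and −0.10 to −0.05 in OE, and *Cnn1* (4.94) and *Myl9* (2.78) weigh heavily in its mean. With ribosomal centring the counts higher and lower were 0 and 11 for cardiomyocytes, 0 and 10 for endothelium, 3 and 1 for macrophages and 4 and 7 for smooth muscle and pericytes. At an unadjusted p under 0.05 by limma, 0 endothelial markers were higher and 8 lower, and 7 macrophage markers were higher and 0 lower, each of 12 and beside 20.4% of all genes higher and 19.9% lower. Their part in the values of the thrombospondins was not tested.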

How the data were processed

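Total RNA from whole ventricles of 3 CTRL and 3 OE mice was hybridized to 6 Affymetrix mouse arrays. In GeneSpring GX, the authors summarized probe sets by RMA, normalized the arrays by quantiles and transformed each probe set to a baseline at its median, and deposited the log2 values (the base of the logarithm was taken from RMA and is not given in the sources used here; nor is the RMA version). Quantile normalization removes a shift common to all genes, and the centring removes levels and makes the 2 middle arrays of each probe set mirror each other around 0, which places them at equal distance from it. Intensities over background were not used here, and the number of arrays limits the precision. Groups came from the sample labels.

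Of 45101 probe sets, 34945 naming 1 symbol were kept, with symbols updated through gene IDs to RefSeq (GRCm38.p6, 162 IDs without an entry), while 932 naming several symbols, 9211 without a gene here and 64 array controls, some of which fall under both, were left out. Probe sets were averaged to 18193 genes. OE was compared with CTRL in limma 3.58.1 (lmFit, eBayes; R 4.3.3), two-sided, without covariates, with Benjamini-Hochberg adjustment and a threshold of 0.05. The standard errors (SE) are limma's moderated ones. The script was tested on simulated data. Replicate numbers showed no pairing of the arrays (correlation of deviations between arrays of the same number 0.0697, −0.117 and 0.0253). For different numbers the correlation ran from −0.113 to 0.0848. What the numbers mark is not stated, and this check cannot exclude shared litters or batches. The members and the gene lists, written from textbook knowledge, were chosen with earlier results of these data known. Lists were described by counts and medians, with no list test. Some genes are in 2 lists, so the counts of different lists are not separate observations. Named genes were all members and their probe sets, *Nr2f2*, up to 4 called genes with the largest change per list and up to 2 that went against the list or were not called, and the 3 genes most like each called member with a log2 change of at least 1. Fewer were named for the lists of other cell types. Alternatives were one-way analysis of variance (the test the methods name), array weights, centring on ribosomal protein genes or on the array median, a replicate block, each array left out in turn, no probe sets with the suffix _x_at or _s_at, the probe set of largest variance, and fold limits of 1.2 and 2. Values for a *Thbs1* probe set naming 2 symbols were added after seeing the data. Promoter windows were searched with Python 3.11.15.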

Additional observations from a re-analysis of the deposited data

How the results depend on the processing

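*Comp*, *Thbs4* and *Thbs3* stayed called higher under every alternative run, with one-way analysis of variance giving adjusted p of 0.0161, 0.0273 and 0.0201. No pairing of the arrays by replicate number was seen, though 3 arrays a group cannot exclude it. With the replicate number as a block these 3 genes remained called (adjusted p = 0.000613, 0.00129 and 0.00217 by limma), while all genes gave 2369 higher and 1679 lower. *Thbs1* was called under none of them, and *Thbs2* only with ribosomal centring (log2 change −0.44), when 1 thrombospondin gene and 2 of the probe sets were lower. That centring called 9194 of all 18193 genes lower. Without single arrays 3 to 4 of the probe sets were called higher, the fourth being 1460302_at of *Thbs1* without CTRL 1. The order of the changes did not move when the probe set of largest variance stood for each gene. Fold limit 2 left 298 genes higher and 126 lower, against 2709 and 2152 without it. The values hold no level, so dim probe sets could not be filtered, and 3 arrays a group leave a change like that of *Thbs1* unresolved.

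Counts of the linked lists depended more on the setting. One-way analysis of variance called 1437 genes higher and 1125 lower. Its counts were 1 receptor higher, 7 matrix partners higher and 0 lower, 1 TGF-β gene higher and 2 lower, 0 genes of the ATF6 list either way, 5 matricellular genes higher, 0 nitric oxide and angiogenic genes higher and 3 lower, 3 fibroblast markers higher and 1 lower, 1 tendon and cartilage marker each way, 0 platelet markers lower, 2 macrophage markers higher, 0 endothelial markers lower, 0 cardiomyocyte markers higher and 0 immediate early genes higher. Ribosomal centring, which shifts every gene by the same amount in an array, gave 1312 genes higher and 9194 lower, 1 receptor higher and 9 lower, 6 matrix partners lower, 5 TGF-β genes higher and 7 lower, 0 genes of the ATF6 list higher and 7 lower, 2 matricellular genes lower, 0 nitric oxide and angiogenic genes higher and 11 lower, 9 tendon and cartilage, 6 platelet and 10 endothelial markers lower, 3 macrophage markers higher and 1 lower, 0 cardiomyocyte markers higher and 2 immediate early genes lower.

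With the probe set of largest variance 5 receptors were higher and 4 lower, 2 matrix partners lower, 1 gene of the ATF6 list higher, 0 nitric oxide and angiogenic genes and 0 cardiomyocyte markers higher, and 0 platelet markers lower. With the replicate block 0 matrix partners were lower and 1 gene of the ATF6 list and 0 cardiomyocyte markers higher. Without probe sets of the suffix _x_at or _s_at 1 receptor and 1 gene of the ATF6 list were higher and 0 platelet markers lower. Array weights gave 2 platelet markers lower, and centring on the array median gave 1 gene of the ATF6 list and 0 platelet markers lower. The cause of these moves was not tested.

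On leaving out each array, 1830 to 2371 genes were called higher and 1243 to 1731 lower. Ranges were 1 to 2 receptors higher, 8 to 13 matrix partners higher and 0 to 1 lower, 4 to 9 TGF-β genes higher and 2 to 3 lower, 0 to 2 of the ATF6 list higher and 1 to 3 lower, 0 to 1 nitric oxide and angiogenic genes higher, 0 to 2 fibroblast markers lower, 1 to 3 tendon and cartilage markers higher and 0 to 2 lower, 0 to 1 platelet markers in either direction, 3 to 6 macrophage markers higher and 0 to 1 lower, 2 to 7 endothelial markers lower, 0 to 1 cardiomyocyte markers higher and 2 to 7 immediate early genes higher. Among the 86 genes picked from the lists or as most like a member, 28 lost their call under one-way analysis of variance. Those 86 include genes that were not called in the main fit, and some of them are not named here.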

Other observations

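One more probe set, 1421811_at, names both *Thbs1* and *Pald1* in the array annotation and was kept out of the averages. It was at 0.26, −1.59 and −2.16 in CTRL and at 0.29, 0.96 and −0.26 in OE. CTRL 1 lay among the OE arrays, as it did at the *Thbs1* probe sets. Its log2 change was 1.49 (SE 0.57, adjusted p = 0.101 by limma over 45037 probe sets), which was not called. Averaged with the other two probe sets it gave *Thbs1* a log2 change of 0.89 (adjusted p = 0.181 by limma).

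Of 12 macrophage markers, a cell type in which thrombospondin receptors are also found, *Lgals3* (1.13, adjusted p = 0.0159) and *Cd14* (1.10, adjusted p = 0.0016) rose the most, followed by *C1qb* (0.70, adjusted p = 0.00208) and *Cd68* (0.58, adjusted p = 0.0385). The call on *Lgals3* was lost without CTRL 2 or OE 1, and that on *Cd68* without CTRL 1, CTRL 2, OE 2 or OE 3 (adjusted p up to 0.114). *Cd163*, a marker of resident macrophages, was at −0.65 (adjusted p = 0.141). Of the platelet markers *Treml1* fell by 0.32 (adjusted p = 0.0492, lost on leaving out any array), and *Ppbp* (−0.66, adjusted p = 0.13) and *Clec1b* (−0.35, adjusted p = 0.0509) were not called.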
